A study of Mus musculus with 3 samples.

Results

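The proteasome genes were taken as every gene of the array whose symbol in the platform annotation begins with Psma, Psmb, Psmc, Psmd, Psme, Psmf or Psmg and a number, from oligos that name a single gene. Of 15096 gene symbols on the array, 50 met this rule, carried by 51 oligos. Of the 50 genes, 48 encode subunits, activators, an inhibitor or assembly chaperones of the proteasome. The other 2, Psmc3ip and Psme3ip1, encode proteins named for binding a proteasome protein and were kept apart. Symbols decide membership, but the family itself was selected on its log2 ratios on these same 3 arrays, in earlier work on the data. The values below are therefore a description, and each p-value is given only as the fit across all genes returned it.

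The data were 3 2-colour oligonucleotide arrays. On each, RNA of 13.5 dpc (days post coitum) kidney in channel 1 was set directly against RNA of 10.5 dpc metanephric mesenchyme in channel 2, from microdissected tissue of normal CD1 mouse embryos, pooled over both sexes. All RNA was amplified before labelling, and all 3 arrays made up 1 group with no common reference. The deposited value is a log2 ratio, whose numerator and dye orientation are not given in the sources used here. A dye swap is mentioned in the labels of all 3 arrays without saying which were turned. Genes are therefore placed on its positive or negative side, and neither side is read as the kidney. Whether each array had its own pool of tissue is not stated, so the spread between arrays may be technical.

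The proteasome is the large protease that degrades proteins tagged with ubiquitin. Its barrel, the 20S core, is built from rings of alpha subunits, which guard the entry, and rings of beta subunits, some of which cut. The 19S regulatory particle caps the barrel: its base holds a ring of ATPases that unfold the substrate and pull it in, and its lid removes the ubiquitin. Immune cells and cells exposed to interferon exchange the cutting beta subunits for immunoproteasome versions, which favour peptides for antigen presentation. The transcription factor NRF1, encoded by Nfe2l1, raises transcription of proteasome genes through antioxidant response elements when degradation falls short.

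The medians of the core and the regulatory genes stood on opposite sides of the ratio, with single genes of each on the other side. The median over 9 measured genes of the constitutive core was 0.26, and the median over 17 genes of the 19S particle was -0.25. For all 19635 genes tested it was 0.0020 (14746 genes with a symbol and 4889 oligos without a single symbol, each counted as a gene). The 9 core genes include Psma8, the testis paralogue of Psma7, and without it the core median was also 0.26. With 1 array left out the 19S median was -0.40 without array 1, -0.23 without array 2 and -0.13 without array 3, and the core median ranged from 0.22 to 0.32. On arrays 1, 2 and 3 the core median was 0.40, 0.20 and 0.18, and the 19S median was -0.13, -0.29 and -0.50. The core median was thus the higher on every array, by 0.53, 0.48 and 0.68 log2 units. Of the core genes 7 of 9 had a positive mean, and of the 19S genes 12 of 17 had a negative one and 5 a positive one; of all genes 50.3% were positive and 49.7% negative. This difference was not tested, since members and contrast were chosen together. In tissue RNA, fewer cells of a type and less RNA per cell cannot be told apart.

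**Figure D1:**
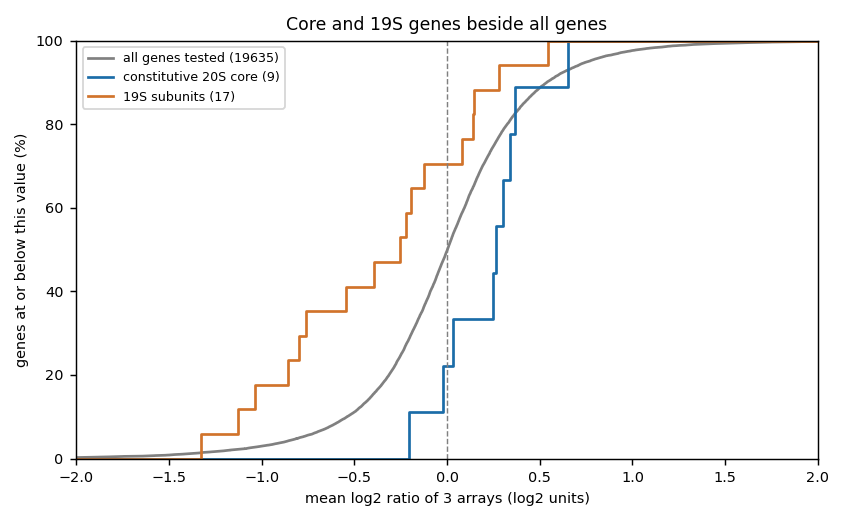
Share of genes (%) at or below each mean log2 ratio of the 3 arrays, for 9 constitutive core genes (Psma8 among them), 17 19S genes and all 19635 genes tested. The core steps lie to the right of the curve of all genes over most of the range and the 19S steps to the left of it, with medians of 0.26 and -0.25.

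Of the 50 genes, 44 had a value on all 3 arrays and entered the fit. None of them passed a Benjamini-Hochberg adjusted p of 0.05 in limma, where 0% of all genes were called as positive and 0.00509% as negative; the smallest adjusted p among them was 0.124, of Psme3ip1. At an unadjusted limma p under 0.05 there were 2 genes on the positive side, against 8.99% of all genes, and 11 on the negative side, or 25% of the 44, against 7.83% of all genes. A mean of -0.5 or less was held by 12 genes (11.1% of all genes) and a mean of 0.5 or more by 2 (11.3% of all genes). Every array was positive for 11 genes (21.5% of all genes) and negative for 17 (19.9% of all genes). Since the set was selected on this contrast, nothing is read from these shares. The median over all 44 was -0.11, or -0.059 without Psmc3ip and Psme3ip1; it was -0.012 without array 2 and -0.026 with genes on 2 arrays admitted. The unadjusted count on the positive side was 0 without array 2 (5.38% of all genes in that fit), 1 without array 1 (4.35%) and 1 without array 3 (10.6%).

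**Figure D2:**
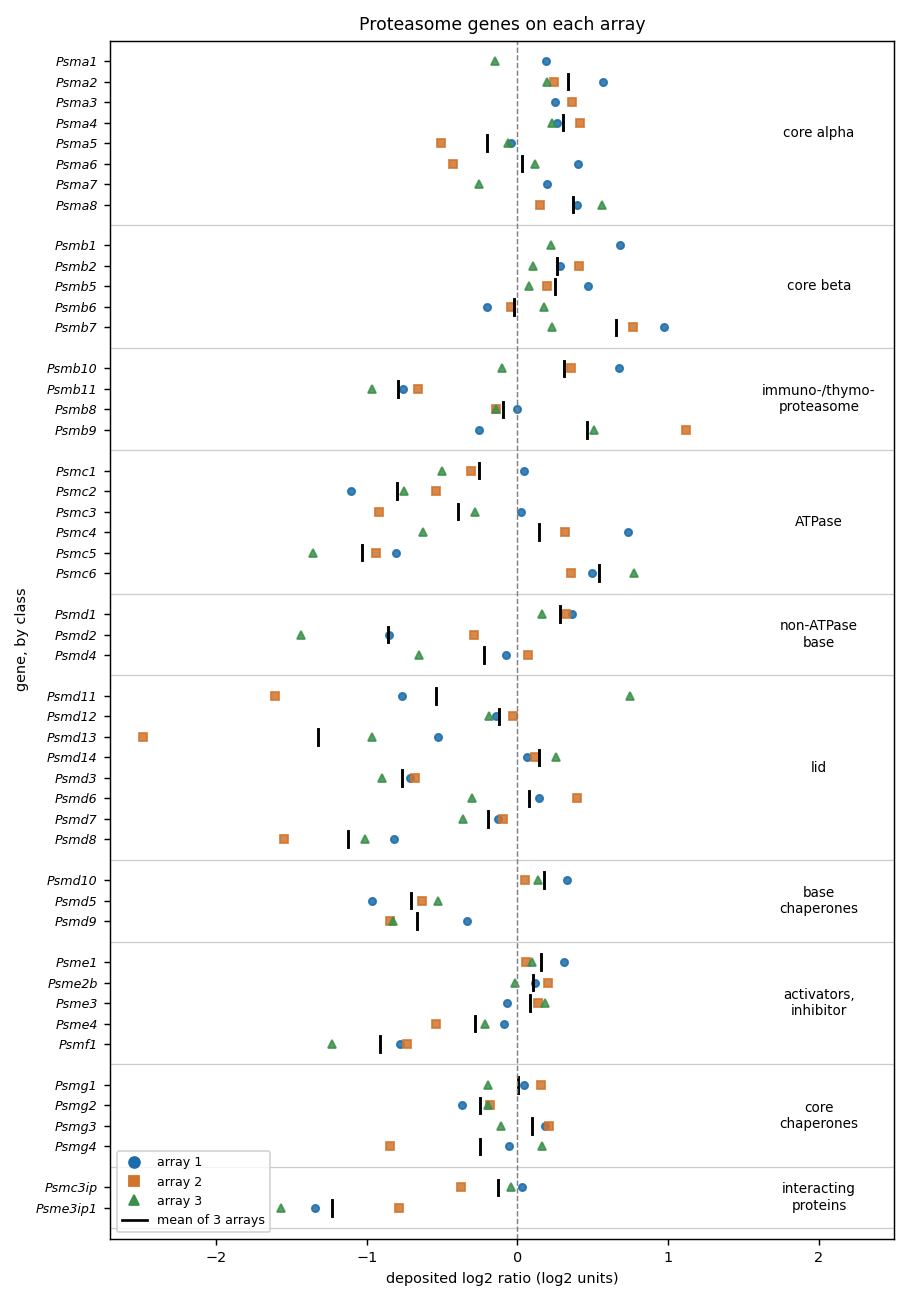
Deposited log2 ratio (log2 units) of each proteasome gene on arrays 1, 2 and 3 (circle, square, triangle), by class; the bar is the mean of 3 arrays. The 4 genes without a bar had values on 2 arrays only, and the lowest point is Psmd13 on array 2 at -2.48.

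Promoter sequences are shown for Psmb5 and Psmc6, on the positive side, and for Psmd9 and Psmc5, on the negative side. Psmb5, Psmc6 and Psmd9 were picked as windows with a match to the NRF1-type element, and Psmc5 as a window without it. Each is the RefSeq window of build GRCm38.p6 from 250 bases before to 50 bases after the annotated start, read in the direction of the gene; capitals mark the element TGACNNNGC on either strand. Psmb5 (mean log2 ratio 0.25) lies at chr14:54617946-54618245, minus strand, Psmc6 (0.54) at chr14:45329574-45329873, plus strand, Psmd9 (-0.67) at chr5:123227940-123228239, plus strand and Psmc5 (-1.03) at chr11:106255935-106256234, plus strand.
Psmb5: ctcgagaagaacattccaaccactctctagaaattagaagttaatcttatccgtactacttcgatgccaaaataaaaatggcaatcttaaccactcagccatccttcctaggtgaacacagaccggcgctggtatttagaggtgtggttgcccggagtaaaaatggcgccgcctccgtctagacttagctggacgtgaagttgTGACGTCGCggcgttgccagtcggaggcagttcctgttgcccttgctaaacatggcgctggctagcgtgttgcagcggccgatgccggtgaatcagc
Psmc6: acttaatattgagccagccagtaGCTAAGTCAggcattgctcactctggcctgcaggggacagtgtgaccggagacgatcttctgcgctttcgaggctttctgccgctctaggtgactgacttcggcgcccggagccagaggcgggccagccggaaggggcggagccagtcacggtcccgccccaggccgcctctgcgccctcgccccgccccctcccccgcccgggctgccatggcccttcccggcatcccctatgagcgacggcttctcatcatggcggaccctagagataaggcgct
Psmd9: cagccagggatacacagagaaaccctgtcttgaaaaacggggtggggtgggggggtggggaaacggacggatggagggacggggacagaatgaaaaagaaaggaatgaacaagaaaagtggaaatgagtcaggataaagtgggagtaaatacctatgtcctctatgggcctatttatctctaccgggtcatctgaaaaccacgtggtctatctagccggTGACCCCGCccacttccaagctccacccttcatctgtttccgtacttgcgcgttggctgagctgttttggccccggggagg
Psmc5: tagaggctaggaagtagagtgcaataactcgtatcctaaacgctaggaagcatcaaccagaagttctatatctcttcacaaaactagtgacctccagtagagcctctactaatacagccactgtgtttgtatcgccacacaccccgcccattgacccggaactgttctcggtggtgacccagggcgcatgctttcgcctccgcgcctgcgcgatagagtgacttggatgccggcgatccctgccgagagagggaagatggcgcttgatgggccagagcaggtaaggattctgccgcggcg

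The element begins 47 bases before the start of Psmb5, 227 before that of Psmc6 and 31 before that of Psmd9, and the Psmc5 window holds none. Of the 50 genes, 42 had a window in the table; Psma8, Psmb1, Psmb2, Psmb7, Psmc3, Psmd3, Psmd7 and Psmg2 did not. The element was found in 6 of the 42 genes (14.3%), and in 14.0% of all 27025 genes with a window. It was in 2 of 11 core genes, Psmb5 and Psmb6, and in 2 of 14 19S genes, Psmc6 and Psmd12; the others were Psmd9 and Psme4. The CCAAT box, searched as CCAAT on both strands, was in 16 of 42 genes (38.1%) and 41.1% of all genes, with 6 of 11 core genes and 4 of 14 19S genes. Of the interferon-type elements, GAAA-NN-GAAA was in 5 of 42 genes (11.9%, against 3.99% of all genes), namely Psmd4, Psmd9, Psmb3, Psmg4 and Psme1. The immunoproteasome genes Psmb8, Psmb9 and Psmb10 did not hold it. TTCNNNGAA was in 3 genes (7.14%, against 9.55%), namely Psmd2, Psmg1 and Psmb8. All 4 elements were searched on both strands, none contains another, and a gene with several annotated starts was counted once.

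The alpha subunits form the outer rings of the barrel, and 5 of their 8 genes were measured on all arrays. Their median was 0.30, or 0.17 without Psma8. Psma8, the testis paralogue of Psma7, stood at 0.40, 0.15 and 0.56 on arrays 1, 2 and 3, a mean of 0.37 ± 0.21 (SD, n = 3 arrays). Psma2 had 0.57, 0.24 and 0.20, a mean of 0.34 ± 0.20. Psma4 had 0.26, 0.42 and 0.23, a mean of 0.30 ± 0.10. These 3 were positive on every array, and Psma4 had the narrowest spread of them. Psma5 lay on the other side at -0.20 ± 0.26, and Psma6 changed sign between arrays at 0.030 ± 0.42, a mean that turned negative in 5 alternative settings. Limma called none of the 5 (adjusted p from 0.356 to 0.959).

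The constitutive beta genes include the cutting subunits Psmb5, Psmb6 and Psmb7, which carry the chymotrypsin-like, caspase-like and trypsin-like activities. Psmb7 had 0.97, 0.76 and 0.23 on arrays 1, 2 and 3, a mean of 0.65 ± 0.38 (SD, n = 3; 1.57-fold), the highest mean of all 44 genes over 3 arrays. Psmb5 had 0.47, 0.20 and 0.075, a mean of 0.25 ± 0.20. Psmb6 had -0.20, -0.044 and 0.18, a mean of -0.022 ± 0.19. Psmb7 and Psmb5 were thus positive on all arrays, and the arrays of Psmb6 lay on both sides of 0. A difference among these genes was not tested, and on array 3 Psmb6 (0.18) lay above Psmb5 (0.075). Psmb2, a structural beta subunit, had 0.28, 0.41 and 0.11, a mean of 0.26 ± 0.15. Psmb7 had an unadjusted limma p of 0.0296 and an adjusted p of 0.246, and its mean ranged from 0.50 to 0.87 with 1 array left out. It was not the highest without array 1, where Psmb9 stood at 0.81 and Psmc6 at 0.57, nor without array 2, where Psmb7 had 0.60 and Psmc6 0.64.

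All 6 proteasome genes that lacked a value on some array belonged to this core. Psmb3 and Psmb4 had none on any array. Psma1 had 0.19 on array 1 and -0.15 on array 3, and Psma7 had 0.19 and -0.25 there. Psmb1 had 0.68 and 0.22 on the same arrays, and Psma3 had 0.25 and 0.36 on arrays 1 and 2. Of these 4, Psma3 and Psmb1 were positive on every array that held a value, while Psma1 and Psma7 had opposite signs. The oligos of the core lacked a value on some array in 6 of 15 cases (40%), those of the 19S particle in 0 of 17, and all library oligos in 3.32%. With the 4 genes admitted the core median was 0.26, and the median of the alpha genes was 0.17.

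The immunoproteasome genes replace the cutting subunits in immune cells, Psmb9 for Psmb6, Psmb10 for Psmb7 and Psmb8 for Psmb5. Psmb9 had -0.25, 1.12 and 0.51 on arrays 1, 2 and 3, a mean of 0.46 ± 0.69 (SD, n = 3). Psmb10 had 0.67, 0.35 and -0.10, a mean of 0.31 ± 0.39. Psmb8, with 2 oligos of means -0.19 and -0.0018, had -0.0046, -0.14 and -0.14, a mean of -0.10 ± 0.079. Psmb9 and Psmb10 each crossed 0 between arrays, and the averaged oligos of Psmb8 lay below it on every array, although the oligos taken singly ranged from -0.31 to 0.20. Psmb11, the beta subunit of the thymus cortex, stood apart at -0.76, -0.66 and -0.97, a mean of -0.79 ± 0.16 with every array negative (limma unadjusted p = 0.00522, adjusted p = 0.144). RefSeq places Psmb11 next to Psmb5, whose mean of 0.25 has the other sign.

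Psmb9 and Psmb8 alternate with the peptide transporter genes Tap1 and Tap2 on chromosome 17. In that order Psmb9, Tap1, Psmb8 and Tap2 had means of 0.46 ± 0.69, -0.23 ± 0.47, -0.10 ± 0.079 and 0.69 ± 0.66. The arrays of Psmb9 and of Tap1 lay on both sides of 0, and Tap2 was near 0 on array 3, so no order along the locus is read from these means. Of 15 genes of antigen presentation and interferon signalling, 11 had a positive mean and the median was 0.31, or 0.20 without array 2. Among all genes 50.3% had a positive mean. B2m, the light chain of class I molecules, had 1.51, 1.10 and 1.21, a mean of 1.28 ± 0.21, and the kinase gene Jak2 0.80, 0.53 and 2.62, a mean of 1.32 ± 1.13. H2-D1, a class I heavy chain, stood at -0.69 ± 0.50 and Pdia3, a chaperone of class I loading, at -0.48 ± 0.19, both negative on all arrays. At an unadjusted limma p under 0.05 there were 2 genes on each side, beside 8.99% of all genes as positive and 7.83% as negative. The adjusted p was passed by 0. Of 13 leukocyte markers measured, 8 were positive, with means from -0.80 to 0.71 and medians of 0.25, 0.081 and 0.16 on arrays 1, 2 and 3; the pan-leukocyte gene Ptprc stood at 0.22 ± 0.45, and the part of these cells in the immunoproteasome values was not tested.

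The ATPases form the unfolding ring of the base, and all 6 of their genes were measured, with a median of -0.32. It was 0.033, -0.42 and -0.56 on arrays 1, 2 and 3, and -0.50 without array 1 and -0.18 without array 2. Psmc5 had -0.80, -0.94 and -1.36 on arrays 1, 2 and 3, a mean of -1.03 ± 0.29 (SD, n = 3), a 2.05-fold difference. Psmc2 had -1.10, -0.54 and -0.75, a mean of -0.80 ± 0.29. Psmc6 had 0.50, 0.36 and 0.78, a mean of 0.54 ± 0.21. Proteins of 1 ring thus had genes on both sides of the ratio, with Psmc5 and Psmc2 negative and Psmc6 positive on all 3 arrays. Of all genes 50.3% were positive and 49.7% negative, so 6 genes are likely to hold both signs. Nothing is read from the split. These 3 had unadjusted limma p of 0.00349, 0.00921 and 0.026 and adjusted p of 0.128, 0.17 and 0.234. Psmc1, Psmc3 and Psmc4 crossed 0, with means of -0.25 ± 0.28, -0.39 ± 0.48 and 0.14 ± 0.70; that of Psmc4 was -0.15 without array 1.

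Beside the ATPases, the base holds the scaffold proteins Psmd1 and Psmd2 and the ubiquitin receptor Psmd4. Psmd2 had -0.85, -0.29 and -1.43 on arrays 1, 2 and 3, a mean of -0.86 ± 0.57 (SD, n = 3). Psmd1 had 0.36, 0.32 and 0.16, a mean of 0.28 ± 0.11. The scaffolds were on opposite sides, each with 1 sign on all arrays, and the arrays of Psmd2 lay far apart (limma unadjusted p = 0.0275, adjusted p = 0.241). Psmd4 stood at -0.22 ± 0.38 and crossed 0. The median of these 3 genes was -0.22, or -0.0018 without array 3 and -0.36 without array 2.

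The lid had a median of -0.37 over 8 genes, 6 of them with a negative mean, beside 49.7% of all genes. Its median was -0.34, -0.39 and -0.33 on arrays 1, 2 and 3, and -0.21 without array 2. Psmd8, a structural subunit that completes the lid, had -0.82, -1.55 and -1.01 on arrays 1, 2 and 3, a mean of -1.13 ± 0.38 (SD, n = 3; 2.18-fold). Psmd3, a subunit of its horseshoe-shaped scaffold, had -0.71, -0.68 and -0.90, a mean of -0.76 ± 0.12. Psmd13 had -0.53, -2.48 and -0.97, a mean of -1.33 ± 1.02, the lowest of all 44 genes over 3 arrays. All 3 were negative on every array, and array 2 set Psmd13 apart: without it the mean was -0.75, above that of Psmd8 at -0.91. Their unadjusted limma p were 0.00403, 0.00538 and 0.0308, and their adjusted p 0.132, 0.144 and 0.25.

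Psmd11, whose product joins the lid to the base, had the widest arrays of the set at -0.77, -1.61 and 0.75, a mean of -0.54 ± 1.19. Array 3 was positive and the others negative, so the mean was -1.19 without array 3 and -0.010 without array 2. Psmd14, the deubiquitinase of the lid, stood on the positive side at 0.064, 0.11 and 0.25, a mean of 0.14 ± 0.10, while Psmd7, its inactive partner, had -0.20 ± 0.15 with every array negative. Psmd12 stood at -0.12 ± 0.081 and Psmd6 at 0.080 ± 0.35 with arrays on both sides of 0. With Psmd11 and Psmd13 left out, an alternative chosen after seeing the data, the lid median was -0.16 and the 19S median -0.22.

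**Figure D3:**
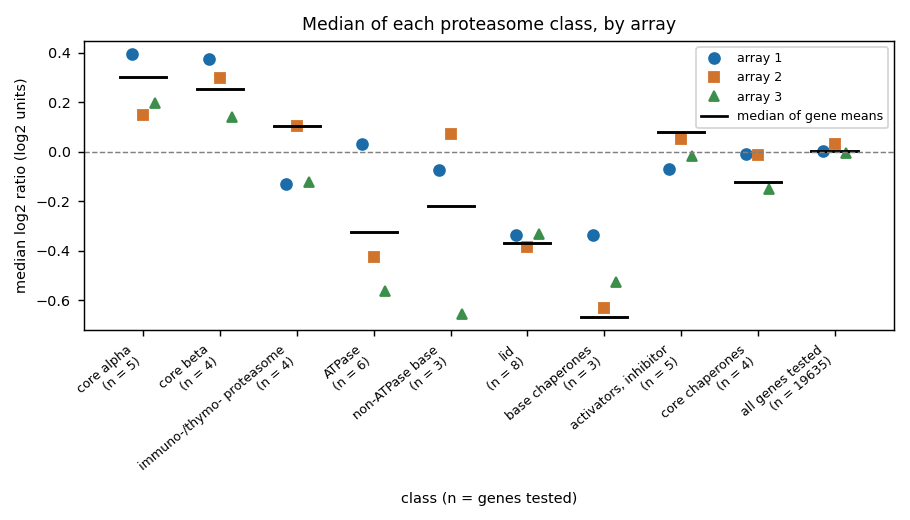
Median log2 ratio (log2 units) of each class on arrays 1, 2 and 3 (circle, square, triangle), with the median of the gene means as a bar and the number of genes tested below. The core alpha and core beta medians lie above 0 on every array, and those of the lid and of the base chaperones below 0 on every array.

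Chaperones that guide assembly were measured in full. Of those for the base, Psmd5 had -0.97, -0.63 and -0.52 on arrays 1, 2 and 3, a mean of -0.71 ± 0.23 (SD, n = 3). Psmd9 had -0.33, -0.84 and -0.83, a mean of -0.67 ± 0.29. Psmd10, also known as the oncoprotein gankyrin, had 0.33, 0.051 and 0.14, a mean of 0.17 ± 0.14. They bind ATPases before the base closes, and each kept 1 sign on all arrays, 2 of them negative (limma adjusted p = 0.18 for Psmd5 and 0.208 for Psmd9). The chaperones of the alpha ring stood nearer 0, with Psmg2 at -0.37, -0.18 and -0.20, a mean of -0.25 ± 0.10, and Psmg1, Psmg3 and Psmg4 at 0.0018 ± 0.18, 0.10 ± 0.18 and -0.25 ± 0.53 with arrays of either sign. The sign of Psmg1 and that of Psmg4 depended on the setting.

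Activators can cap the core in place of the 19S particle, and most stood close to 0. Psme1, a subunit of the interferon-inducible cap, had 0.31, 0.054 and 0.10 on arrays 1, 2 and 3, a mean of 0.15 ± 0.14 (SD, n = 3). The oligo for the other subunit is annotated to Psme2b, a near copy of Psme2, so it may have read either gene; its mean was 0.10 ± 0.11. Psme3, the nuclear activator, stood at 0.082 ± 0.13, and Psme4, the single-chain activator PA200, at -0.088, -0.54 and -0.22, a mean of -0.28 ± 0.23. Psmf1, which encodes the core-binding inhibitor PI31, differed from these in size: it had -0.78, -0.73 and -1.23, a mean of -0.91 ± 0.28 (1.89-fold; limma unadjusted p = 0.00522, adjusted p = 0.144).

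The 2 genes named for binding a proteasome protein also differed from each other. Psme3ip1, whose product binds the nuclear activator Psme3, had -1.34, -0.78 and -1.57 on arrays 1, 2 and 3, a mean of -1.23 ± 0.40 (SD, n = 3). Psmc3ip, a cofactor of meiotic recombination, stood at -0.13 ± 0.22 with arrays on both sides of 0. Psme3 itself, at 0.082, did not share the value of its partner.

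Proteins that work with the proteasome but carry other names stood near 0 for the most part. Of 11 partners measured, 8 had a negative mean, beside 49.7% of all genes, and the median was -0.091. On each side 1 had an unadjusted limma p under 0.05, beside 8.99% of all genes as positive and 7.83% as negative, and 0 an adjusted one. The deubiquitinases of the 19S particle took opposite sides: Usp14 had -1, -0.58 and -0.90, a mean of -0.83 ± 0.22, and Uchl5 had 0.31, 0.44 and 0.50, a mean of 0.42 ± 0.10. The shuttle proteins Ubqln1 and Ubqln4 stood at -0.25 ± 0.043 and -0.16 ± 0.12. Sem1, the smallest lid subunit, had -0.057, -0.86 and 0.75, and Pomp, the maturation factor of the core, -0.32, 0.31 and -0.34, each with arrays of either sign.

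In the NRF1 and NRF2 pathway, 15 genes had a median of 0.057, with 9 positive means, beside 50.3% of all genes. Nfe2l1 itself had -0.23, 0.51 and -0.66 on arrays 1, 2 and 3, a mean of -0.13 ± 0.59 (SD, n = 3) with no common sign. Nfe2l2, which encodes the related factor NRF2, had 0.50, 0.61 and 1.06, a mean of 0.72 ± 0.30. Gclc, the catalytic subunit of glutathione synthesis and a target of NRF2, had 1.31, 1.29 and 1.54, a mean of 1.38 ± 0.14. Gclm, the modifier subunit of the same enzyme, lay on the other side at -0.36, -0.35 and -0.50, a mean of -0.40 ± 0.082. The NRF2 targets Hmox1 and Nqo1 stood at 0.040 ± 0.46 and 0.057 ± 0.071. The small Maf partners Mafg and Maff went opposite ways, with -0.60, -5.10 and -1.43 for Mafg, where array 2 lay far below the others, and 0.71 ± 0.43 for Maff. At an unadjusted limma p under 0.05 there were 4 positive genes and 1 negative gene, beside 8.99% and 7.83% of all genes. The adjusted p was passed by 0.

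Other large complexes were set beside the proteasome, with no test of the difference. The COP9 signalosome, which resembles the lid in its plan, had a median of -0.16 over 9 genes, or -0.0060 without array 3, from Gps1 at -0.73 ± 0.27 to Cops5, its deneddylase, at 0.70 ± 0.15, with Cops2 at 0.54 ± 0.23 and Cops4 at -0.53 ± 0.35. The initiation factor eIF3, built on the same plan, had -0.057 over 12 genes, from Eif3b at -1.96 ± 0.92 to Eif3m at 0.47 ± 0.25. The chaperonin CCT, a ring of unlike subunits, had -0.013 over 8 genes, from Cct5 at -0.96 ± 0.076 to Cct8 at 1.12 ± 0.42. Each of these complexes too had subunits on opposite sides of the ratio. Since 50.3% of all genes were positive and 49.7% negative, lists of 8 to 12 genes are likely to hold both signs. Nothing is read from that. The ribosomal proteins of the cytosol had -0.068 over 63 genes. Of these, 5 of 63 (7.94%) had a mean of 0.5 or more in size, against 22.4% of all genes. Among the proteasome genes 14 of the 44 (31.8%) had such a mean. Since that set was selected on these ratios, nothing is read from its share. At an unadjusted limma p under 0.05, negative side, there were 2 COP9, 3 eIF3, 1 CCT and 0 ribosomal genes, beside 7.83% of all genes. On the positive side there were 2, 1, 1 and 4, beside 8.99% of all genes. The adjusted p was passed by 0 genes of these 4 lists.

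**Figure D4:**
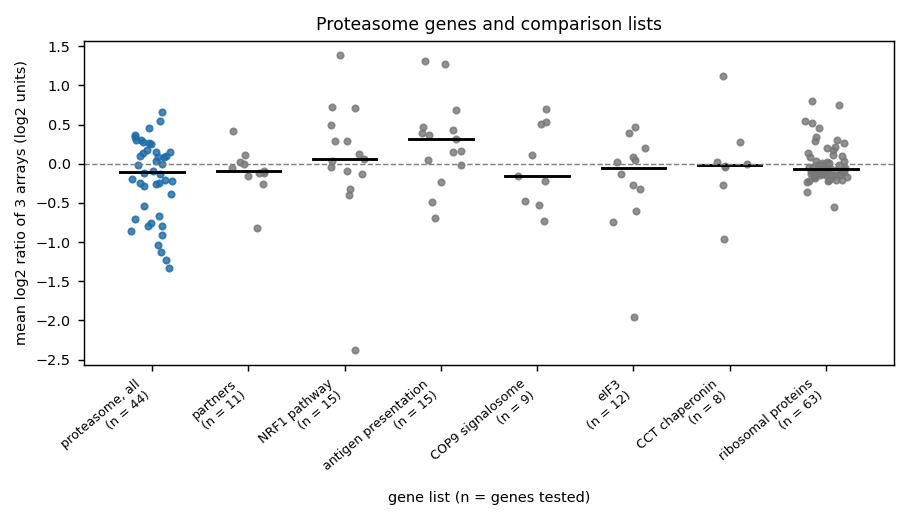
Mean log2 ratio of 3 arrays (log2 units) of each gene in the proteasome set and in 7 other lists; the bar is the list median and n the genes tested. The proteasome genes reach from -1.33 to 0.65, and the 63 ribosomal protein genes from -0.55 to 0.80.

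Across the 44 proteasome genes the Pearson correlation was 0.65 between arrays 1 and 2, 0.67 between 1 and 3 and 0.50 between 2 and 3. Over the 17 19S genes these were 0.65, 0.51 and 0.30, and over all 19635 genes 0.46, 0.17 and 0.16. They are correlations across genes, which are not independent replicates, and the arrays share their tissues and processing. The median SD over arrays was 0.22 for the proteasome genes and 0.32 for all genes. Since the family was selected on these same arrays, nothing is read from its higher correlations or its lower SD.

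Tissue markers gave the setting of these values. All 8 kidney markers measured lay on the positive side, from Lrp2 at 0.37 to Cdh16 at 3.31. The others were Wnt4, Wt1, Cited1, Calb1, Six2 and Gdnf. Whether these genes tell kidney from metanephric mesenchyme was not tested. All 5 red-cell markers lay on the negative side, from Hbb-bh1 at -3.95 to Hba-x at -0.21. Of 5 mesenchyme markers 4 were positive, with a median of 0.15, beside 50.3% positive among all genes. Of 9 genes of cycling cells 4 were positive, with a median of -0.11, and of 6 endothelial genes 2 were positive, with a median of -0.018. The red-cell markers stood on the side of most 19S genes and the kidney markers on that of most core genes, and their part in the proteasome values was not tested.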

How the data were processed

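The sources used were the deposited value table, the GEO labels, the platform's probe annotation and RefSeq tables of GRCm38.p6. The authors deposited 1 log2 ratio of the channels per oligo and array. Per the labels, images were read with ImaGene 5.5 and normalized by print-tip loess and between arrays in R; a lowess curve spanning 20.0% of the data corrected the control channel, which was floored at 10. The log base is not stated and was taken from the values, whose powers of 2 are ratios of 3 decimals. Spot intensities were not used here, so dim or saturated spots and background could not be examined; the number of arrays limits the precision.

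Of 22702 spots, 21819 were library oligos, and 21094 had a value on all 3 arrays. Oligos of 1 symbol were averaged, which gave 14746 genes; 4889 oligos without a single symbol were kept as genes of their own, 19635 in all. Limma 3.58.1 (R 4.3.3) compared each mean with 0 (intercept only, eBayes, two-sided, Benjamini-Hochberg over all genes, threshold 0.05), and the code was checked on simulated ratios. Errors are SDs over 3 arrays. The members and lists were chosen with earlier results of these data known. Every gene of the set is accounted for. Array values are given for up to 3 genes per class with the largest mean and 1 sign, for cutting beta subunits and for genes whose arrays span over 1.5, and up to 4 genes of largest mean and 1 sign are named per comparison list; Psmd14, Psme4, Sem1, Pomp, Nfe2l1, Gclm, Hmox1, Nqo1, Tap1, Tap2, Ptprc and further genes named by role were added after their values were seen. Ribosomal proteins were taken by symbol. Alternatives were other normalizations, filters, oligo summaries, weights and priors, and each array left out.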

Additional observations from a re-analysis of the deposited data

How the results depend on the processing

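The core median stayed above the 19S median under all 13 alternatives applied to it, by 0.45 to 0.62 log2 units, against 0.52 as reported. The ends of that range came from fits that left out 1 array. Centring the arrays, the robust prior and the oligo summaries could not change this difference, so they add nothing to that count. The contrast itself was chosen on these ratios. Fits that left out 1 array took in genes valued on both others. In them, medians ranged from -0.40 to -0.13 for the 19S genes, from -0.50 to -0.18 for the ATPases, from -0.22 to -0.0060 for COP9, from -0.40 to -0.21 for the lid, from -0.15 to -0.012 for all proteasome genes, from -0.10 to -0.019 for the core chaperones, from 0.20 to 0.30 for antigen presentation and from -0.075 to 0.011 for eIF3. In those fits 0 to 1 proteasome genes had an unadjusted limma p under 0.05 on the positive side, against 4.35% to 10.6% of all genes, and 8 to 9 on the negative side, against 4.18% to 9.23%. On both arrays used, 13 to 18 were positive (28.6% to 36.5% of all genes) and 18 to 20 negative (26.4% to 33.3%). The lid median was -0.40 with arrays scaled to equal spread, -0.43 with array weights and -0.16 without Psmd11 and Psmd13. With genes on 2 arrays admitted, the median of all proteasome genes was -0.026 and that of the core alpha genes 0.17. These shifts follow from the genes that joined. Without Psma8 the core alpha median was 0.17 too. The eIF3 median was -0.0062 with array weights. The alternatives without Psmd11 and Psmd13 and without Psma8 were chosen after seeing the data. The cause of the other shifts was not tested.

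Some means changed sign, among them those of Psmg4 and Psmc4, which stood at -0.25 and 0.14 over 3 arrays. Psma6 stood at -0.0030 with equal spread, -0.0022 with quantile normalization, -0.047 with array weights, and between -0.16 and 0.26 with 1 array left out. Psmg1 stood at -0.0092 with arrays centred, and between -0.077 and 0.10 with 1 array left out. In such fits Psmb6 ranged from -0.12 to 0.067, Psmc4 from -0.15 to 0.53, Psmd6 from -0.079 to 0.27 and Psmg4 from -0.45 to 0.053. No proteasome gene passed an adjusted p of 0.05 in any of the 11 alternatives that were refitted (lowest adjusted p from 0.0886 with array weights to 0.50 without array 1). Each ratio already sets kidney against mesenchyme within an array, so the fit of its mean against 0 is paired by array. No further pairing was possible, because all 3 arrays form 1 group.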
